A study of Mus musculus and Homo sapiens with 22 samples.

Results

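The genes described here are 10 mouse genes of the LIF-STAT3 and BMP-ID signalling pathways, Lifr, Il6st, Jak1, Stat3, Socs3, Bmp4, Id1, Id2, Id3 and Smad6. They were taken by name from the 56196 genes in the count files, by a rule that uses no measured value, and all 10 passed the filter on low counts. The series mapped N6-methyladenosine (m6A), the most common internal modification of mRNA, with miCLIP2, in which an antibody crosslinked to the RNA stops reverse transcription next to the modified base. RNA-seq was done in mouse embryonic stem cells (mESCs), 3 replicates of the wild type (WT) and 3 with a knockout (KO) of Mettl3, which encodes the enzyme that writes most m6A into mRNA. Lists of m6A sites, each predicted by the m6Aboost classifier, were given for WT mESCs (3 replicates merged), for mouse heart at inputs of 1000, 300, 100 and 50 ng of poly(A)+ RNA (1 library each) and for the human embryonic kidney line HEK293T (4 replicates merged). WT and KO mESCs were lines from an earlier study and both were grown in serum with LIF, so the receptor of the LIF pathway was supplied with its ligand in every RNA-seq library.

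Some features of the libraries bear on all values. Gene counts per library lay between 22746733 and 27254245. Mettl3 was lower in each KO library, with 19.3 ± 2.95 CPM against 27.3 ± 1.39 CPM in WT (SD, n = 3; CPM is the count scaled to the effective library size), with an edgeR log2 fold change of −0.50 (SE 0.14) and an adjusted p of 0.0134. This is above the threshold of 0.01 used here, whereas DESeq2 (adjusted p = 0.00418) and edgeR with the replicate number as a block (log2 fold change −0.51, adjusted p = 0.00281) put Mettl3 past it. By mass spectrometry, the authors found m6A depleted from poly(A)+ RNA of the KO cells. Which part of Mettl3 was deleted is not given in the sources used here. The summed counts of 4 genes of the Y chromosome were between 0 and 3 in WT libraries and between 4721 and 5432 in KO libraries, so an effect of the genotype and a difference between the lines cannot be told apart. The mESC markers were high in all libraries, with a summed level of 3649 to 3807 CPM in WT and 3122 to 3139 CPM in KO, and 2 of 8 were called lower. Markers of feeder fibroblasts summed to 13.5 to 19.9 CPM in WT and 26.3 to 31.7 CPM in KO over 12 genes. Of these 12, 6 were tested, 2 were higher and 1 was lower, and Lum, Dcn and Twist2 had at most 3 counts in every library. Primitive endoderm markers, over 10 genes, summed to 420 to 449 CPM in WT and 409 to 435 CPM in KO. Most of this sum was Sparc (344 ± 20.6 CPM in WT and 300 ± 23.6 CPM in KO), and of the 8 markers tested 3 were called higher and 2 lower, among them Dab2, which went from 1.04 ± 0.0484 CPM (WT) to 34.6 ± 6.35 CPM (KO). The part of such cells in the results below was not tested.

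LIF is a cytokine that binds the receptor chains encoded by Lifr and Il6st, which activate the kinase JAK1. JAK1 phosphorylates STAT3, STAT3 switches on genes of self-renewal, and the STAT3 target Socs3 encodes an inhibitor that shuts the receptor complex off again. BMP4 acts through SMAD proteins to induce the Id genes, whose products bind and block basic helix-loop-helix factors, and SMAD6 is an inhibitory SMAD of the same pathway. In serum, mESCs are kept from differentiating by LIF and BMP together.

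The m6A sites of these genes in WT mESCs are shown first. At least 1 site lay in exons of 8 of the 10 genes, beside 42.1% of all genes tested. In each window of 21 nt the capitals mark the 5 bases centred on the site, of which the middle A is the predicted m6A. Most sites fell in DRACH, the known motif of the methyltransferase, in which AC follows A or G, any base but C comes before that, any base but G comes last, and GGACT is the best known form. The windows are in the sense of the gene, in DNA letters read from the GRCm38 mouse genome. The first 4 belong to Socs3, which had the most sites per length, and 2 of them lie 7 nt apart. Lifr is shown by its highest scoring site and by the site that touches its stop codon, and the other genes by their highest scoring site.
Socs3 in the coding sequence (chr11:117967616-117967636, minus strand): ggccacctGGACTcctatgag
Socs3 in the 3′UTR (chr11:117967255-117967275, minus strand): tgacaagcGGACTctcccctc
Socs3 in the 3′UTR, highest score (chr11:117967186-117967206, minus strand): caagtgttGAACTtagaactg
Socs3 in the 3′UTR, 7 nt further (chr11:117967179-117967199, minus strand): tgaacttaGAACTgcaagggg
Lifr at the stop codon (chr15:7191155-7191175, plus strand): aaaccaaaTGACTaaccaggt
Lifr in the 3′UTR (chr15:7193301-7193321, plus strand): ggagaaatGGACTcattctgt
Il6st in the 3′UTR (chr13:112506399-112506419, plus strand): tagttatgGGACTctatccat
Jak1 in the 3′UTR (chr4:101153231-101153251, minus strand): caaccaaaAGACTagattgtg
Stat3 in the 3′UTR (chr11:100887289-100887309, minus strand): tccaagacGAACTgcttgcct
Bmp4 in the coding sequence (chr14:46383945-46383965, minus strand): tccccactGAACTgagtgcca
Id1 in the 3′UTR (chr2:152737114-152737134, plus strand): cagccaccGGACTcttggcgg
Smad6 in the coding sequence (chr9:64020659-64020679, minus strand): cctgagagTGACTgcgagacg

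Id2 and Id3 had no site in the mESC list but had sites in the heart list at 1000 ng, of which the following are shown to set them beside that of Id1. They all lie in the 3′UTR.
Id2 in heart, 130 nt past the stop codon (chr12:25094446-25094466, minus strand): cgttgaatGGACCtttttaaa
Id2 in heart, 343 nt past the stop codon (chr12:25094233-25094253, minus strand): atgtaagcAGACTttgccttt
Id3 in heart, 187 nt past the stop codon (chr4:136145031-136145051, plus strand): cgagagaaGGACTgaacttgg

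The RNA levels of the 10 genes were then compared between KO and WT mESCs. A gene was called higher or lower when its p from edgeR's quasi-likelihood test, corrected by Benjamini-Hochberg across all 15731 genes that entered the test, was at most 0.01. Stat3, Socs3 and Bmp4 were called lower in KO and Id2 was called higher, so 4 of the 10 genes were called. Of all genes tested 29.7% were called, 12.6% lower and 17.1% higher. The CPM ranges of KO and WT did not overlap for 6 of the 10 genes, beside 56.1% of all genes tested. The median log2 fold change was −0.23 over the 10 genes and −0.02 over all genes. In these bulk samples, fewer cells of a type and less RNA per cell cannot be told apart. The labels do not say whether replicates were separate cultures. The authors call the miCLIP2 replicates of WT and KO mESCs biological and describe the RNA-seq as matched to these samples. The tests measure the spread between these samples, and how far it is technical was not tested.

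**Figure D1:**
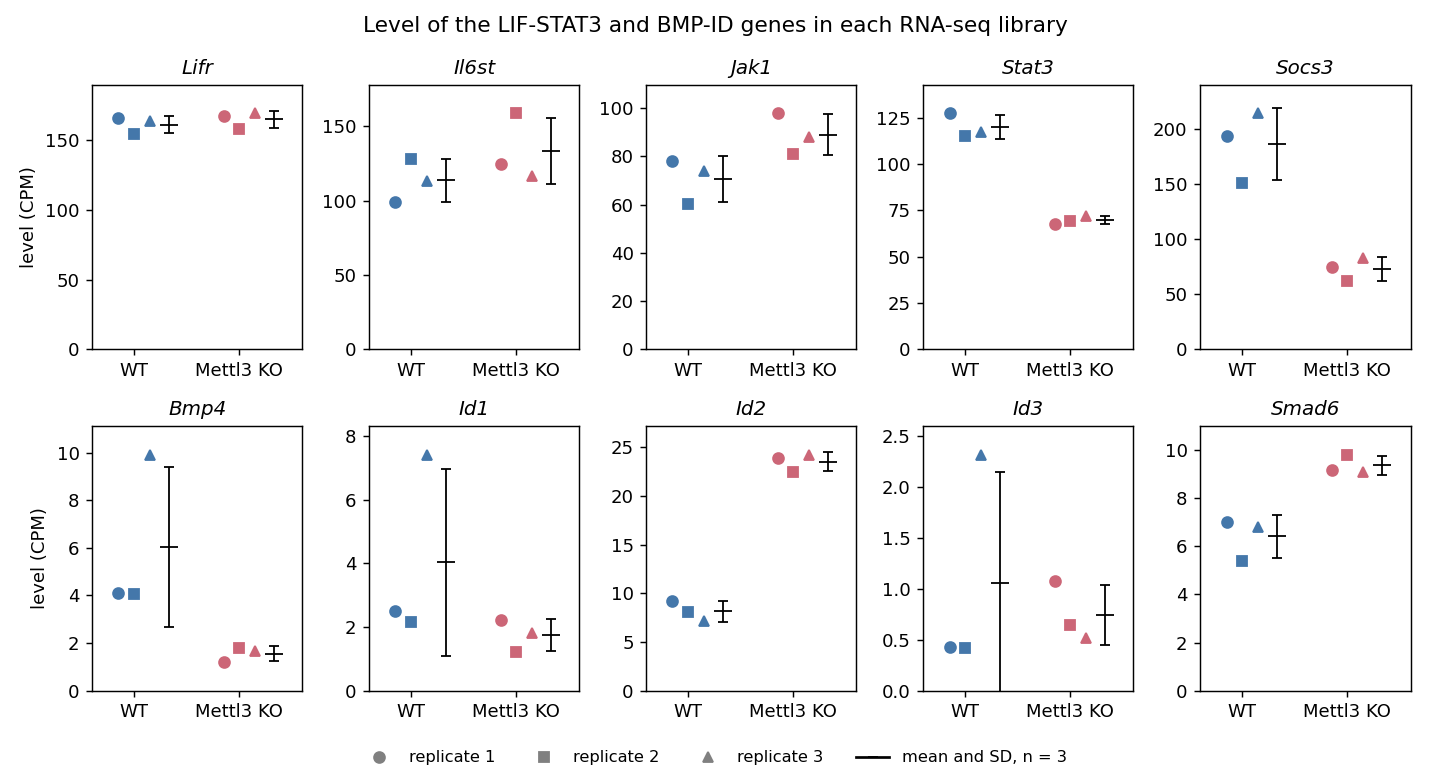
Level of each of the 10 genes in CPM (y axis, linear and from 0, its own scale for each gene) in the 3 WT and 3 KO libraries, with the replicate number as the symbol and the mean and SD (n = 3) in black. Stat3, Socs3 and Bmp4 lay lower and Id2, Jak1 and Smad6 higher in every KO library, and WT replicate 3 stood above the other WT libraries in Bmp4, Id1 and Id3.

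Lifr encodes the chain that recognises LIF (ENSMUSG00000054263.12, chr15:7090614-7197489 on the plus strand, GRCm38). Its level was 165, 154 and 163 CPM in WT replicates 1 to 3 and 167, 158 and 169 CPM in KO replicates 1 to 3. The groups overlapped, and replicate 2 was the lowest of its group in both. edgeR gave a log2 fold change of 0.03 (SE 0.10, adjusted p = 0.803). Il6st encodes gp130, the signalling chain shared by the cytokines of this family (ENSMUSG00000021756.12, chr13:112464070-112510086, plus strand). Its level was 99.0, 128 and 113 CPM in WT and 125, 159 and 117 CPM in KO. Here replicate 2 was the highest of each group and the groups overlapped as well, with a log2 fold change of 0.23 (SE 0.14, adjusted p = 0.202).

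Jak1, the kinase bound to these receptors (ENSMUSG00000028530.14, chr4:101152367-101265282, minus strand), was at 78.1, 60.1 and 73.9 CPM in WT and at 97.8, 81.1 and 87.8 CPM in KO. All KO libraries lay above all WT libraries, the lowest KO value by a small margin, and replicate 2 was the lowest in both groups. The log2 fold change was 0.33 (SE 0.13) and the adjusted p 0.0521, which is not a call. With the replicate number as a block, the log2 fold change was 0.34 and the adjusted p 0.00709, which is one. That fit called 43.5% of all genes tested.

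Stat3 encodes the transcription factor that carries the LIF signal (ENSMUSG00000004040.16, chr11:100885098-100939540, minus strand). Its level was 127, 115 and 117 CPM in WT and 67.9, 69.5 and 72.0 CPM in KO. The groups were well apart and the KO libraries differed little among themselves. Stat3 was 1.72-fold lower in KO (log2 fold change −0.78, SE 0.10, adjusted p = 0.000180).

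Socs3, the feedback inhibitor of the receptor complex and a target of STAT3 (ENSMUSG00000053113.3, chr11:117966079-117970047, minus strand), was at 194, 151 and 214 CPM in WT and at 74.4, 61.8 and 82.8 CPM in KO. The highest KO library lay far below the lowest WT library. The order of the replicates was the same in both groups, with replicate 2 lowest and replicate 3 highest. Socs3 was 2.55-fold lower in KO (log2 fold change −1.35, SE 0.15, adjusted p = 0.000107). Both the transcription factor of the pathway and its inhibitor were thus lower, while the receptor chains were not called.

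Bmp4 encodes the ligand of the BMP branch (ENSMUSG00000021835.15, chr14:46383520-46390669, minus strand). Its counts were 87, 107 and 210 in WT and 30, 53 and 45 in KO, or 4.11, 4.07 and 9.92 CPM against 1.19, 1.79 and 1.66 CPM. The groups did not overlap, but WT replicate 3 was 2.43 times the mean of the other WT replicates. Bmp4 was 3.87-fold lower in KO (log2 fold change −1.95, SE 0.38, adjusted p = 0.00220). Without WT replicate 3 the log2 fold change was −1.39 and the adjusted p 0.00161. Leaving out KO replicate 1 ended the call, with a log2 fold change of −1.80 and an adjusted p of 0.0128.

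The Id genes, which are induced by BMP and encode inhibitors of basic helix-loop-helix factors, did not move together. Id1 (ENSMUSG00000042745.9, chr2:152736251-152737410, plus strand) had counts of 53, 57 and 157 in the WT libraries against 56, 36 and 49 in the KO libraries, or 2.50, 2.17 and 7.42 CPM against 2.23, 1.22 and 1.81 CPM. WT replicate 3 was 3.18 times the mean of the other WT replicates, and KO replicate 1 lay above WT replicate 2. Its log2 fold change of −1.20 (SE 0.46, adjusted p = 0.0543) became −0.42 (adjusted p = 0.279) without WT replicate 3. With the replicate block it was −1.06 with an adjusted p of 0.00721, which passes the threshold.

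Id2 (ENSMUSG00000020644.9, chr12:25093799-25097140, minus strand) was called higher in KO. Its counts were 196, 213 and 151 for WT against 600, 666 and 657 for KO, or 9.25, 8.11 and 7.14 CPM against 23.9, 22.5 and 24.3 CPM. The groups were far apart, and WT replicate 3 was the lowest of all. Id2 was 2.88-fold higher in KO (log2 fold change 1.53, SE 0.14, adjusted p = 4.04e-05).

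Id3 (ENSMUSG00000007872.3, chr4:136143497-136145755, plus strand) was close to the limit of detection, with counts of 9, 11 and 49 for WT against 27, 19 and 14 for KO. WT replicate 3 was 5.49 times the mean of the other WT replicates in CPM, and the groups overlapped. The log2 fold change was −0.48 (SE 0.63, adjusted p = 0.551) and turned to 0.80 (adjusted p = 0.156) without WT replicate 3, so no direction is given for it.

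Smad6, the inhibitory SMAD (ENSMUSG00000036867.7, chr9:63953076-64022059, minus strand), had counts of 149, 142 and 144 for WT against 231, 291 and 246 for KO. This came to 7.03, 5.41 and 6.80 CPM in WT against 9.19, 9.82 and 9.09 CPM in KO, so all KO libraries lay above all WT libraries. The log2 fold change of 0.55 (SE 0.18) had an adjusted p of 0.0283 and was not called.

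**Figure D2:**
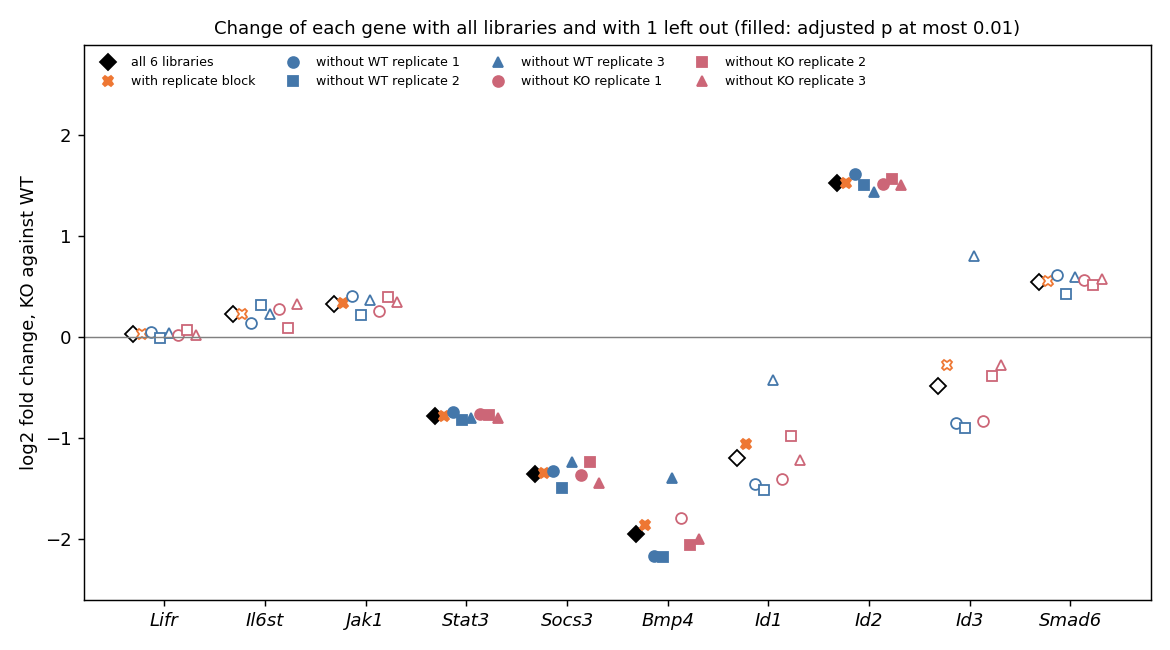
Fitted log2 fold change, KO against WT (y axis), of each of the 10 genes with all 6 libraries, with the replicate block and with each library left out in turn. Filled symbols have an adjusted p of at most 0.01. Stat3, Socs3 and Id2 stayed filled in each of these fits, whereas Id1 and Id3 moved most without WT replicate 3.

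To compare levels between genes, CPM was divided by the exon length in kb. This length joins all annotated exons of a gene, 9527 nt for Stat3 and 2438 nt for Id2. The single transcripts in which sites were placed have 4516 and 1969 nt. The order of the genes below holds for the joined exons only and was not tested with transcript lengths. In WT mESCs, Socs3 had the highest level per kb of the 10 genes (64.4 ± 11.2 CPM per kb, SD, n = 3). It was followed by Lifr (14.9 ± 0.564 CPM per kb), Stat3 (12.6 ± 0.687 CPM per kb), Il6st (10.2 ± 1.31 CPM per kb) and Jak1 (9.78 ± 1.31 CPM per kb), of which Il6st and Jak1 lay within their spread. The BMP-ID genes were lower, with Id1 at 3.47 ± 2.53, Id2 at 3.35 ± 0.435, Bmp4 at 2.68 ± 1.50 and Smad6 at 2.00 ± 0.275 CPM per kb, neighbours that did not differ beyond their spread, and Id3 at 0.588 ± 0.610 CPM per kb. In KO mESCs, Socs3 was still first at 25.3 ± 3.65 CPM per kb. Id2, at 9.66 ± 0.387 CPM per kb, then lay above Stat3, at 7.33 ± 0.217 CPM per kb, and Bmp4 (0.689 ± 0.139 CPM per kb) lay next to Id3 (0.416 ± 0.163 CPM per kb).

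Because the ID proteins share a function, the levels per kb of Id1 to Id4 were also added up. The sum was 8.99 ± 2.50 CPM per kb in WT and 15.2 ± 0.961 CPM per kb in KO (SD, n = 3). Id2 made up 39.7 ± 13.3% of the sum in WT and 63.6 ± 3.41% in KO. The E proteins, the factors that ID proteins bind, were mixed. Tcf12 was 2.00-fold higher in KO (adjusted p = 5.61e-05) and Tcf4 had a log2 fold change of 0.44 (adjusted p = 0.00687), while Tcf3 had one of −0.05 (adjusted p = 0.732).

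The other genes of the LIF-STAT3 pathway showed changes in both directions. Of a list of 39 genes 38 were tested, and 7 were called higher and 7 lower, 14 in all, beside 17.1% higher and 12.6% lower of all genes tested. The median log2 fold change of the list was −0.07, near that of all genes. Among the genes called lower, Jak3, a kinase related to Jak1, was 4.06-fold lower (36.9 ± 9.15 CPM in WT and 9.10 ± 1.53 CPM in KO, adjusted p = 5.39e-05). Stat5a, a relative of Stat3, was 2.27-fold lower (adjusted p = 0.00261). Klf5, a transcription factor of naive pluripotency, was 1.89-fold lower (259 ± 46.9 CPM in WT and 137 ± 13.1 CPM in KO, adjusted p = 0.000597). Socs2, a relative of Socs3, was 1.61-fold lower (adjusted p = 0.00127).

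Among the other SOCS genes, Socs2 was thus lower as Socs3 was, while Socs5, Socs6 and Cish were called higher and Socs1, Socs4 and Socs7 were not called. Socs5 was 3.22-fold higher in KO (9.13 ± 2.00 CPM in WT and 29.5 ± 3.32 CPM in KO, adjusted p = 6.08e-05) and Cish was 2.68-fold higher (adjusted p = 0.000452). Cntfr, the receptor of a related cytokine, was 2.44-fold higher (adjusted p = 0.00175). Lif itself had a log2 fold change of 0.61 (adjusted p = 0.0441), which is not a call but becomes one with the replicate block (0.59, adjusted p = 0.00537). With the block 21 genes of the list were called, beside 43.5% of all genes. The count was 8 without WT replicate 1 or without KO replicate 1 and 9 without KO replicate 3, fits that called 19.1%, 17.1% and 19.3% of all genes. The split between directions varied, with 7 higher and 11 lower by DESeq2 and 8 higher and 4 lower when scaled by library size only. Of all genes, DESeq2 called 18.9% higher and 15.9% lower, and the fit scaled by library size only called 18.7% higher and 7.62% lower.

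Genes called in the BMP-ID list were all higher in KO. Of 40 genes 34 were tested, and edgeR called 14 higher and 0 lower, beside 17.1% higher and 12.6% lower of all genes tested, with a median log2 fold change of 0.28 beside −0.02. DESeq2 also called 14 higher and 0 lower, beside 18.9% higher and 15.9% lower of all genes. At an unadjusted edgeR p under 0.05 there were 18 higher and 4 lower, and the share of all genes at that p was not counted. With the replicate block, which called 23.5% of all genes higher and 20.0% lower, 14 were called higher and 3 lower. Bambi, a pseudoreceptor that dampens BMP signals, was 3.10-fold higher (9.76 ± 0.299 CPM in WT and 30.3 ± 1.33 CPM in KO, adjusted p = 1.17e-05). The ligand Gdf3 was 2.34-fold higher (52.0 ± 20.5 CPM in WT and 122 ± 1.86 CPM in KO, adjusted p = 0.00133), and the ligand Bmp7 was 2.33-fold higher (adjusted p = 0.00129). Id4, the remaining Id gene, was 2.29-fold higher (6.07 ± 1.66 CPM in WT and 14.0 ± 1.89 CPM in KO, adjusted p = 0.00142). Bmp2 had 0 counts in all WT libraries and 25, 14 and 15 counts in KO, which makes it at least 5.08-fold higher against a floor of 3 counts per library. Bmp4 was called lower, but Gdf3 and Bmp7 were named as among the highest of the called genes and Bmp2 after its values were seen. Their contrast with Bmp4 therefore follows in part from how they were picked.

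**Figure D3:**
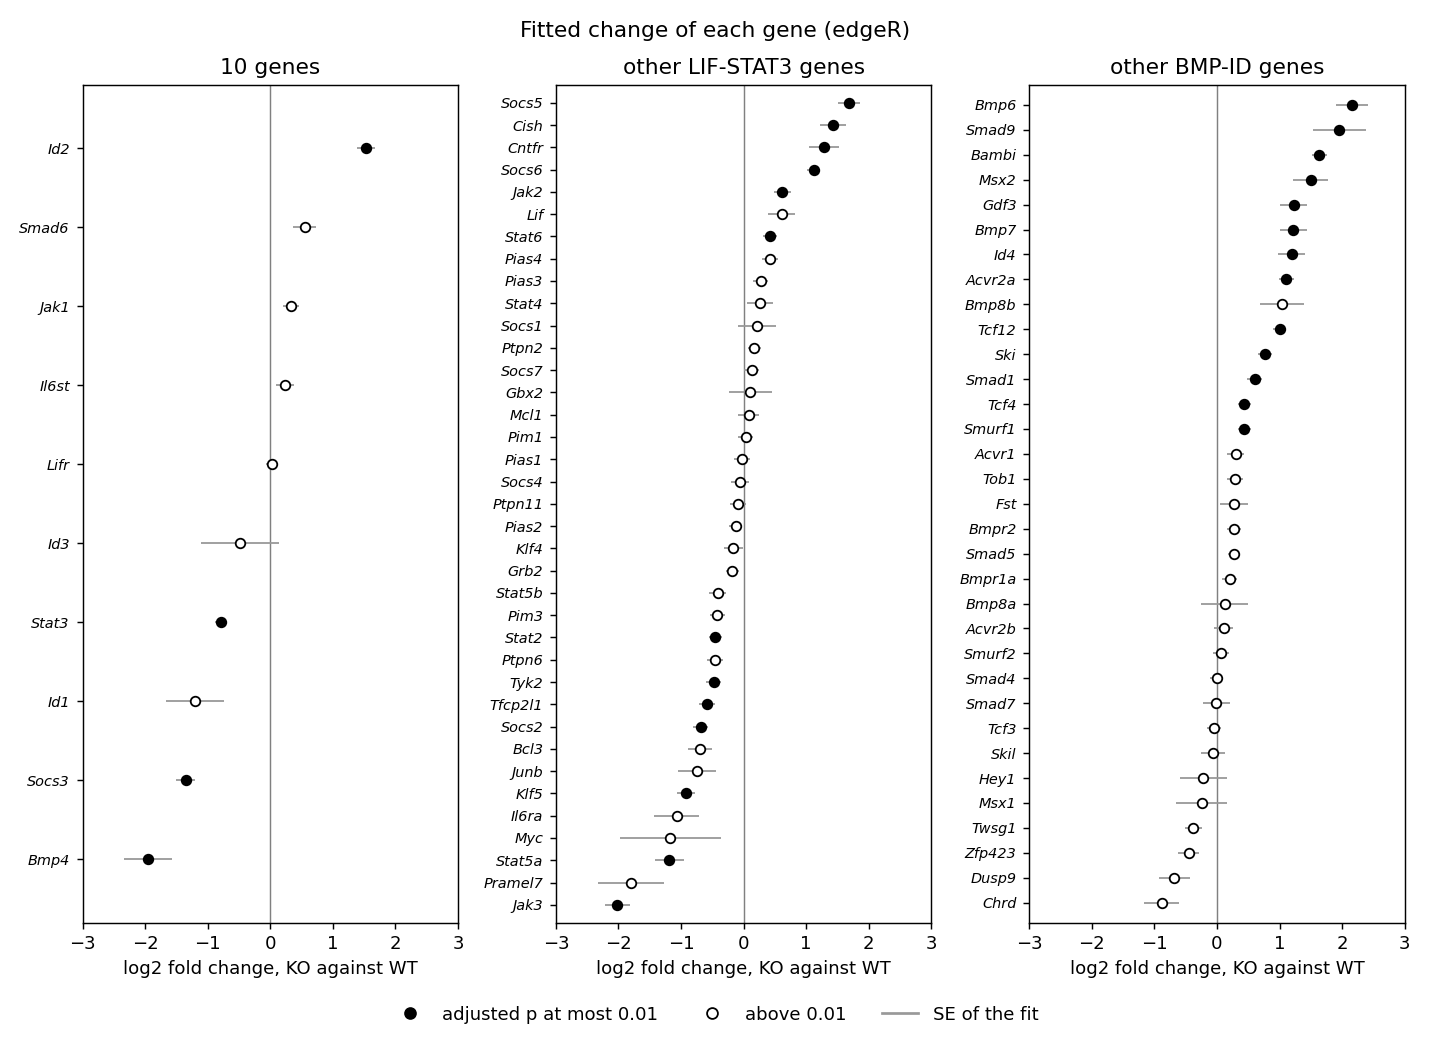
Fitted log2 fold change, KO against WT (x axis), with its SE (bars), of the 10 genes, of the other LIF-STAT3 genes and of the other BMP-ID genes that were tested. Filled circles have an adjusted p of at most 0.01, and Bmp2, with 0 counts in WT, and 1 further gene are not drawn. The filled circles lie on both sides of 0 among the LIF-STAT3 genes and to the right of 0 among the BMP-ID genes.

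The m6A sites of WT mESCs were then described in full. The mESC list held 25456 sites, and 39 of them fell in exons of 8 of the 10 genes, namely 13 in Lifr, 11 in Socs3, 8 in Il6st, 3 in Stat3 and 1 each in Jak1, Bmp4, Id1 and Smad6. Of all genes tested that could be placed, 42.1% had at least 1 site. Among genes with a site the median was 3 sites, and 214 genes (1.36%) of those tested had at least 13 and 353 (2.25%) at least 11. Of the 39 sites 27 lay in the 3′UTR and 12 in the coding sequence, 36 were in the last exon and 21 within 400 nt of the stop codon. All but 1 were in DRACH, the exception being a GAACG in the 3′UTR of Lifr. The transcripts of the 10 genes held 817 DRACH motifs, of which 38 (4.65%) had a site. The list merges replicates and gives no read depth, so it has no error per site, and a gene read at low depth can lack a site for that reason alone.

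Socs3 had the most sites for its length. Its 11 sites came to 3.80 per kb of exon, higher than in 98.8% of genes with a site, where the median was 0.600 per kb, and 11 of its 45 DRACH motifs (24.4%) were in the list. Of the 11 sites 3 lay 40 to 90 nt before the stop codon, 6 lay 169 to 400 nt past it and 2 lay 1161 and 1360 nt past it. The m6Aboost scores, which run up to 1 for the surest call, were between 0.563 and 0.962. The highest was that of the GAACT 359 nt past the stop codon, and the GAACT 366 nt past it, 7 nt further, scored 0.919. Socs3 was also the gene of the LIF branch with the strongest fall in RNA among the 10, and it had the highest level per kb in WT. A link of its sites to either was not tested, and the miCLIP2 data of KO cells were not analysed here.

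Lifr had 13 sites, 10 of them in its very long 3′UTR. The 3 in the coding sequence lay 2, 188 and 413 nt before the stop codon. The one at 2 nt is in codon 1092, the last before the stop, and the 5 bases around it run into the stop codon itself. Another 2 sites followed at 188 and 259 nt past the stop codon. The remaining 8, from 2144 to 5932 nt past it, are in the 3′UTR of the transcript Lifr-203 but not in that of Lifr-201, which ends at position 7191743. The highest score, 0.967, was that of the GGACT at 2144 nt, above 99.3% of the sites of the list. Per kb of exon Lifr had 1.21 sites, higher than in 78.2% of genes with a site.

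Il6st had 8 sites, 2 of them in the coding sequence at 305 and 217 nt before the stop codon and 6 in the 3′UTR between 175 and 2004 nt past it. A pair at 175 and 179 nt lies only 4 nt apart, so that their motifs overlap. The highest score, 0.922, was that of the GGACT at 1966 nt. A shorter coding transcript, Il6st-208, holds 2 of the 8 sites in its exons. Jak1 had a lone site at an AGACT 256 nt past the stop codon (score 0.886), in a transcript with 129 DRACH motifs.

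Stat3 differed from the receptors in where its sites lay. Of its 3 sites 2 were in the coding sequence of internal exons, at codon 236 in exon 8 and codon 315 in exon 9 of 24, and the third was at 1408 nt past the stop codon. None was within 400 nt of the stop codon, and their scores of 0.621, 0.706 and 0.744 were below the median of the list. Socs3 and Stat3, both lower in KO, had 3.80 and 0.315 sites per kb of exon, and the receptor Lifr, with 13 sites, was not called.

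In the BMP-ID branch, Bmp4 had a site at codon 377 in its last exon, 94 nt before the stop codon (score 0.743). Id1 had a GGACT 113 nt past the stop codon with a score of 0.940, above 97.3% of all sites of the list. Smad6 had a TGACT at codon 119 in exon 1 of 4, with a score of 0.857. Id2, the gene called higher in KO, had no site although its transcript holds 51 DRACH motifs, and Id3, with 30 motifs, had none either. The level in WT was 1.05 ± 1.09 CPM for Id3, 8.17 ± 1.06 CPM for Id2, 6.03 ± 3.37 CPM for Bmp4 and 6.41 ± 0.880 CPM for Smad6 (SD, n = 3). Whether read depth has a part in the lack of a site in Id2 and Id3 was not tested.

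**Figure D4:**
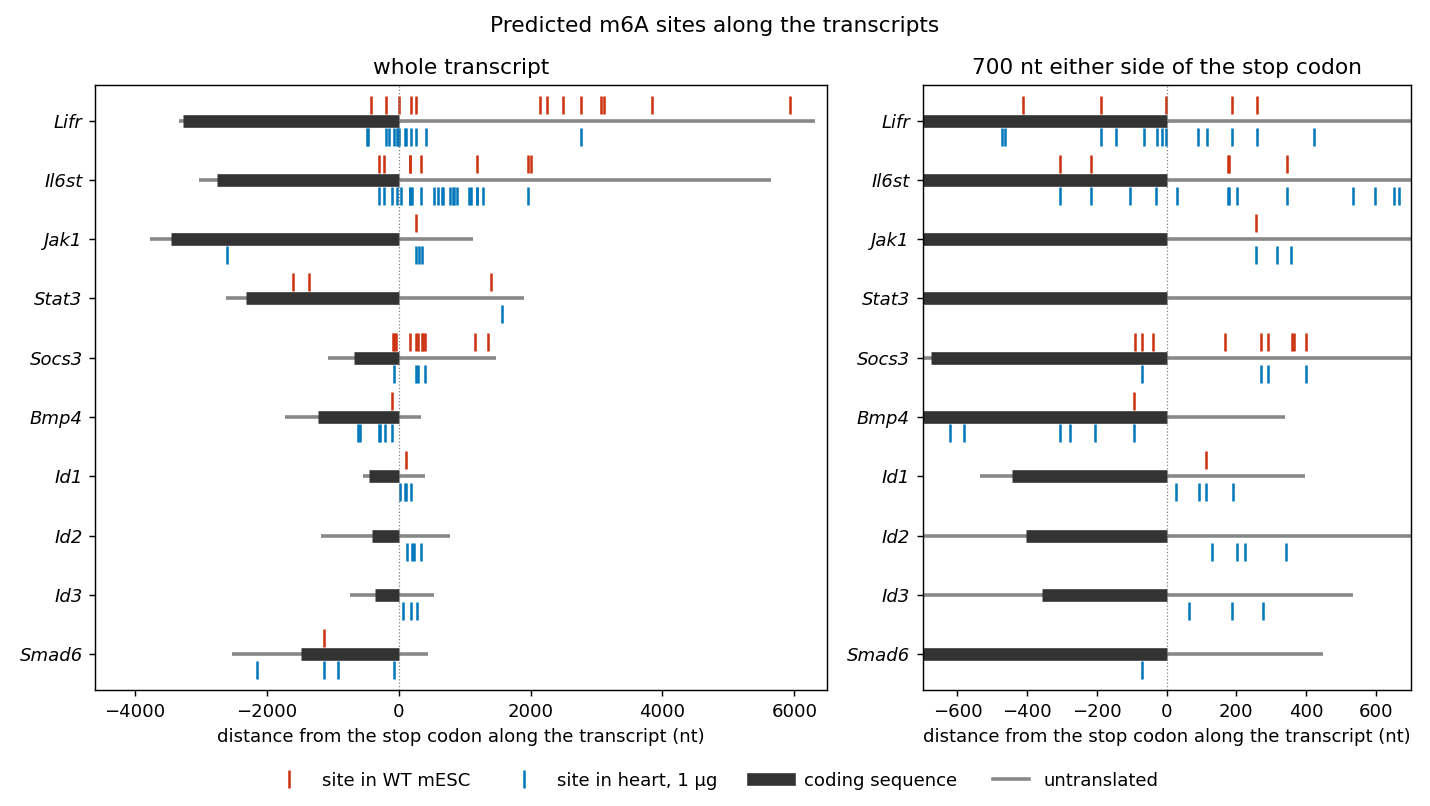
Predicted m6A sites along the transcript of each of the 10 genes, as distance from the stop codon in nt (x axis), with mESC sites above each bar and sites of heart at an input of 1000 ng (1 µg) below it, and the same within 700 nt of the stop codon at the right. Thick bars are coding sequence and thin bars untranslated. The 8 distal sites of Lifr stand out at the left, and Id2 and Id3 have heart sites only.

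The list of mouse heart at 1000 ng, an organ without pluripotent cells, gave sites in all 10 genes, 67 in total, beside 50.3% of genes tested with at least 1 site. That list is larger, with 46421 sites. Of the 39 mESC sites 20 were at the same base in heart at 1000 ng, and 18 were in no heart list. Of the 67 heart sites 47 were not in the mESC list. Il6st had 23 sites in heart, of which 7 were shared with mESCs, so all but 1 of its mESC sites were found again. Lifr had 14, of which 5 were shared, and 1 of its 8 distal sites in mESCs, at 2769 nt, was among them. Socs3 had 4 in heart and all 4 were shared. Stat3 had 1 in heart, a GGACC at 1565 nt past the stop codon, and shared none of its mESC sites.

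Most heart sites of the Id genes were not in the mESC list. Id1 and Id2 had 4 heart sites each and Id3 had 3, and all 11 lay in the 3′UTR. The Id1 site at 113 nt past the stop codon was the only one of these in mESCs, and it was also in the heart lists at 300 and 100 ng. The Id2 sites lay 130, 201, 226 and 343 nt past the stop codon. At 50 ng, where the list held 248 sites in all, Id3 was the only one of the 10 genes with a site, at 187 nt past the stop codon. Bmp4 had 6 sites in heart, all in the coding sequence, and Jak1 and Smad6 had 4 each, with 1 shared with mESCs in each of the 3 genes. At 300 ng, 7 of the 10 genes had a site and Il6st had the most, 11. RNA levels of heart were not measured, and the depth of the lists is unknown.

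Human orthologues were looked up in the HEK293T list by gene name, on GRCh38. Of the 10 genes 7 had a site, 23 in all, and LIFR, SOCS3 and ID1 had none. The share of all human genes with a site was not counted. RNA levels of HEK293T are not part of these data, so whether low RNA has a part in the lack of sites was not tested. ID2 had 5 sites, all in the 3′UTR, at 81, 123, 197, 225 and 329 nt past the stop codon, next to 130, 201, 226 and 343 nt for the mouse heart sites. ID3 had 3, among them a GGACT 178 nt past the stop codon with a score of 1.00. BMP4 had 6, all in the coding sequence, and SMAD6 had 5, 2 of them in the 5′UTR. Only sites at exactly the same distance from the stop codon were matched, so sites shifted by an insertion or deletion were left out. IL6ST had a site at an AGACT 214 nt before the stop codon, near an Il6st one at 217 nt in mESCs and heart. For 3 of the human sites a mouse heart site lay at exactly the same distance, and no mESC site did. The windows of these 3 are printed with the mouse one first, and they share 18, 17 and 20 of 21 bases with it.
Il6st, mouse heart, 30 nt before the stop codon (chr13:112504403-112504423, GRCm38, plus strand): cttgccacAGACTgtaagaca
IL6ST, HEK293T (chr5:55941104-55941124, GRCh38, minus strand): cttaccacAGACTgtacggca
Bmp4, mouse heart, 278 nt before the stop codon (chr14:46384129-46384149, GRCm38, minus strand): ctatacgtGGACTtcagtgac
BMP4, HEK293T (chr14:53950302-53950322, GRCh38, minus strand): ctctatgtGGACTtcagcgat
Bmp4, mouse heart, 305 nt before the stop codon (chr14:46384156-46384176, GRCm38, minus strand): aagaataaGAACTgccgtcgc
BMP4, HEK293T (chr14:53950329-53950349, GRCh38, minus strand): aagaataaGAACTgccggcgc

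Of the other pathway genes that were tested, 23 of 38 in the LIF-STAT3 list (60.5%) and 21 of 34 in the BMP-ID list (61.8%) had at least 1 mESC site, beside 42.1% of all genes tested.

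Promoters were searched for the core motifs of both pathways. Stat3 and Socs3 were both called lower in the LIF branch, and of Id1, Id2 and Id3 only Id2 was called. The windows are those of RefSeq on GRCm38.p6, from 250 bases before to 50 after the transcription start, and 9 of the 10 genes had one. Id1 had no entry. TTCNNNGAA, the motif of STAT factors, which reads the same on both strands, was found in 1 of the 9 genes, Socs3. Of all 27025 genes with a window 9.55% had it, and of all 32851 promoters 8.30%. The match in Socs3 starts 154 bases before the transcription start and is shown in capitals within 21 bases.
Socs3 promoter (chr11:117969506-117969526, minus strand): ccagccTTCTTAGAAgggagg

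GGCGCC, a motif of SMAD factors that also reads the same on both strands, was found in 4 of the 9 genes, Id2, Jak1, Lifr and Socs3. It was found in 13.4% of all genes with a window and in 11.9% of all promoters. In Id2, the only gene of the 10 that was called higher, it starts 231 bases before the transcription start. In Socs3, which was called lower, it starts 61 bases before. In Jak1 and Lifr, which were not called, it starts 43 bases before (Jak1) and 194 and 25 bases before (Lifr). A match says only that these letters are in the window.
Id2 promoter (chr12:25096312-25096329, minus strand): cccctgGGCGCCcagcgc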

How the data were processed

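Values were used as deposited by the authors. For the gene counts, the authors mapped single-end stranded reads to GRCm38 with STAR and ran HTSeq, without normalisation. The score deposited by the authors for mESC and HEK293T sites is the m6Aboost score. The scale of the deposited heart score is not stated, and it was not used. Heart inputs are labelled in µg for 300, 100 and 50, whereas the list names give ng, which was used. Site lists merge replicates.

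The trailing lines for reads outside genes, 36.7 to 42.7% of all counted reads, were left out. Of 56196 genes 55154 matched the GENCODE M21 annotation. KO was compared with WT by edgeR 4.0.16 under R 4.3.3 (quasi-likelihood test without covariates, filterByExpr, TMM), adjusted by Benjamini-Hochberg over 15731 genes and called at 0.01. Tried as alternatives were DESeq2 1.42.0, DESeq2 size factors, library size only, other filters, a threshold of 0.05, a replicate block and leaving out each library. The replicate numbers, taken from the labels, were checked for pairing. Deviations from the group means correlated between libraries of the same number (0.122, 0.464 and 0.303), weakly for replicate 1. The numbers may thus pair the samples, but no label states a pairing. Calls are those of the fit without a block, and blocked values are given where they change a call. Replicates differed by more than sampling noise. The fit was tested on simulated data.

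Sites were placed in the APPRIS principal transcript on the gene's strand (Python 3.11.15, pandas 2.3.3, pysam 0.24.0). None lay in an exon of another gene on that strand. Figures were drawn with Matplotlib 3.10.9. Named genes are the 10 genes, Mettl3, the E proteins, and of each list the 4 highest and 4 lowest log2 fold changes among those called whose mean count reached 100. Of these, 1 gene is not reported here. Lif, Bmp2, Dab2, Foxa2, Col4a1, Gata4, Lama1, Sparc and the remaining Socs genes were named after their values were seen. Members and lists were chosen with earlier results of these data known.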

Additional observations from a re-analysis of the deposited data

How the results depend on the processing

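Stat3, Socs3 and Id2 kept their direction and their call under every alternative run. With a threshold of 0.05 in place of 0.01, 22 genes of the LIF-STAT3 list and 5 of the 10 genes were called, beside 46.6% of all genes. Scaling by library size only shifted the median over all genes (log2) from −0.02 to 0.08 and the share of higher genes among those called from 57.5% to 71.0%, and it brought Jak1 to 0.44 (adjusted p = 0.00858). With the replicate block Jak1 (0.34) and Id1 (−1.06) were called, the genes called among the 10 went from 4 to 6 and no other call among them changed, while over all genes 6837 were called in place of 4669. Without a filter on low counts Id1 was at −1.16 (adjusted p = 0.000496). Leaving out each library in turn gave 8 to 15 called genes in the LIF-STAT3 list, and log2 fold changes of −0.0078 (without WT replicate 2) to 0.0694 for Lifr, −2.18 to −1.39 for Bmp4 and −0.89 to 0.80 for Id3. The call of Bmp4 was lost without KO replicate 1 (−1.80), and Id3 turned to 0.80 without WT replicate 3. The causes of these changes were not tested. Of the 39 sites 21 in 6 genes had a score of at least 0.75, 38 in 8 genes were in DRACH, and 39 in 8 genes were in the longest coding transcript. Counts limit what can be said of Id1, Id3 and Bmp4, and the site lists carry no depth.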

Other observations

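WT replicate 3 stood above the other WT libraries in a few genes of both pathways, which were picked after their values were seen. Relative to the mean of WT replicates 1 and 2 in CPM, it was at 10.6 for Myc, 5.49 for Id3, 3.18 for Id1, 2.43 for Bmp4, 2.36 for Il6ra and 1.62 for Junb, and at 0.822 for Id2. The counts of Myc in WT were 8, 6 and 68, and those in KO were 17, 16 and 12.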
